A study of Mus musculus with 4 samples.

Results

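The inhibitors and proteases described here are the tissue inhibitors of metalloproteinases Timp1, Timp2, Timp3 and Timp4, the membrane-anchored inhibitor Reck, and the ADAMTS proteases Adamts1, Adamts2, Adamts4, Adamts5 and Adamts9, 10 genes chosen by name. A probe set carried the symbol of 9 of them in the platform's gene table, out of 19751 genes tested, and the brightest probe set of each was used. Adamts2 had no such entry and was read only from a probe set that the deposited description assigns to it. The cells were Pdpn KO (genotype Pdpn-/-) and WT mouse embryonic fibroblasts, mesenchymal cells grown out of C57BL6/J embryos taken between embryonic day 9.5 and 13.5. They were kept for 7 to 10 days in 10% serum and then cleared of endothelial and blood cells by magnetic depletion against CD31 and CD45, per the labels. Each genotype had 2 arrays, called biological replicates 1 and 2 in the labels, which do not say how many embryos each holds, which part of Pdpn the allele lacks or what arrays of 1 number share. The knockout is of the whole embryo as labelled, with no Cre line named, and the cells were untreated.

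TIMPs are small secreted proteins that block matrix metalloproteinases by binding the zinc in their active site. Timp3 stays bound to the extracellular matrix and also blocks some ADAM and ADAMTS enzymes, while Reck is held at the cell surface by a lipid anchor. ADAMTS enzymes are secreted zinc proteases with thrombospondin repeats. Adamts1, Adamts4, Adamts5 and Adamts9 cut large proteoglycans such as versican and aggrecan, and Adamts2 trims the amino-terminal propeptide from fibrillar procollagens. Fibroblasts are a main source of both families, and the comparison asks whether fibroblasts without podoplanin, a membrane glycoprotein that links to the actin cortex, express them differently.

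The arrays and labels were checked before the genes were read. Pdpn had intensities of 179 and 201 in Pdpn KO, against 4486 and 3106 in WT, a log2 fold change of -4.30 ± 0.19 (SE, n = 2 per genotype; limma adjusted p = 0.00501). All samples are labelled female, but Pdpn KO replicate 1 and both WT arrays carried Y-linked transcripts. Eif2s3y read 1673 and 35.1 in Pdpn KO, against 1534 and 1474 in WT, and Xist 48.9 and 1831 in Pdpn KO, against 48.6 and 57.4 in WT. Pdpn KO replicate 2 was therefore the only array with the pattern of its label, and the difference of each of the 9 genes is also given without it. Such a fit sets Pdpn KO replicate 1 against both WT arrays. Differences between arrays numbered 1 and 2 thus enter it too, and the 2 cannot be told apart. The fibroblast markers Vim and Fn1, the 2 brightest of 12 listed, lay above the 99th percentile of genes in both genotypes. Vim read 17537 and 17684 in Pdpn KO, against 17995 and 18278 in WT. The dimmest of the 12, Lum and Fap, were chosen after their values were seen. Lum lay at the 19.7 percentile in Pdpn KO and the 11.5 percentile in WT, and Fap at 29.3 and 28.6. The summed intensity of 12 blood endothelial markers was 4326 and 4084 in Pdpn KO, against 4440 and 4283 in WT, and that of 10 blood cell markers 1776 and 1567 in Pdpn KO, against 1692 and 1512 in WT. Both ranges overlapped between the genotypes, and such sums weigh bright markers most. The genes of the depleted proteins, Pecam1 for CD31 and Ptprc for CD45, were chosen after their values were seen. Pecam1 read 124 and 141 in Pdpn KO, against 121 and 154 in WT. Ptprc read 86.5 and 94.9 in Pdpn KO, against 90.0 and 80.6 in WT. Among the endothelial markers Emcn, a sialoglycoprotein of endothelium chosen after its values were seen, read 196 and 177 in Pdpn KO, against 459 and 351 in WT (log2 fold change -1.11 ± 0.16, SE; limma adjusted p = 0.570). The sum of 10 epithelial markers did not overlap, at 3502 and 3273 in Pdpn KO, against 3100 and 2867 in WT, although the mean was higher in Pdpn KO for only 3 of the 10. Krt19, a keratin and the brightest of them, read 1637 and 1195 in Pdpn KO, against 1032 and 675 in WT (0.75 ± 0.24, SE; limma adjusted p = 1.00). Both Pdpn KO arrays lay above both WT arrays for 1 of the 10 epithelial markers, Krt19, against 14.6% of all genes. They lay below for 2 of the 10, against 9.74% of all genes. The part of all these cell type markers in the values below was not tested. RMA, the method behind the values, returns no zeros and no detection calls, so absence of a marker could not be read from them. In bulk RNA, fewer cells of a type and less RNA per cell cannot be told apart.

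None of the 9 genes differed between the genotypes past the threshold. In limma over all genes 0 of 9 had an adjusted p under 0.05, against 0.0101% of all genes, and 0 of 9 had an unadjusted p under 0.05, against 2.01% of all genes (1.5% higher and 0.511% lower); the adjusted p was 1.00 for each of the 9. Reck had an unadjusted p under 0.05 without Pdpn KO replicate 2 (3.65% of all genes in that fit), and Adamts4 without WT replicate 2 (3.69%), neither with an adjusted p under 0.05. The median log2 fold change was 0.06, in a range from -0.05 to 0.32, beside a median of 0.00 over all genes. The mean was higher in Pdpn KO for 7 of the 9 genes, against 51.7% of all genes, and for 5 of 9 when the arrays were centred on their medians or quantile-normalised again. For 2 of 9, Timp1 and Reck, the lower Pdpn KO array exceeded the higher WT array, which held for 14.6% of all genes. The reverse held for 0 of 9, and for 9.74% of all genes. Counts of this size are not read as a result about the 9 genes.

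**Figure D1:**
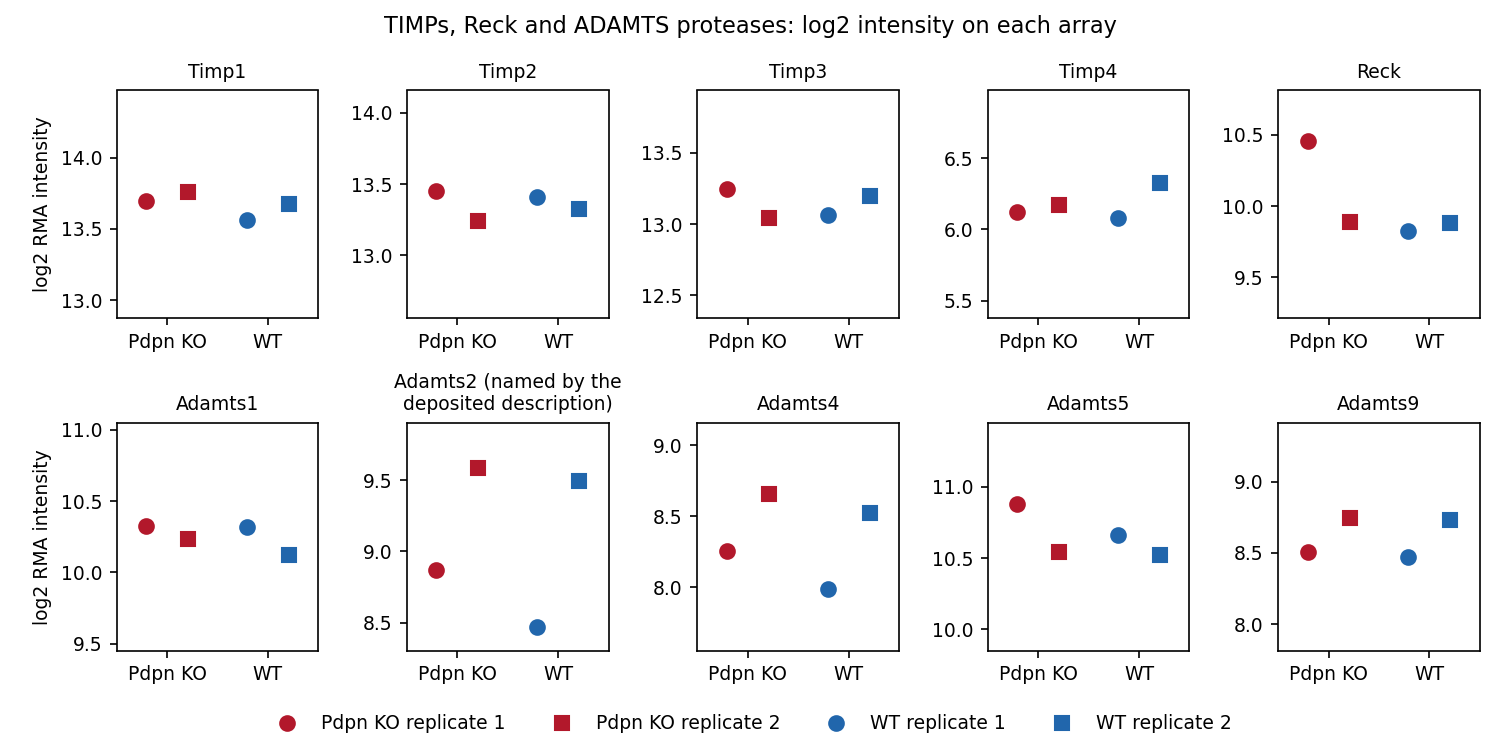
Log2 RMA intensity (y axis, a different level but the same span of 1.6 log2 units in each panel) on each of the 4 arrays, with Pdpn KO in red and WT in blue, circles for replicate 1 and squares for replicate 2. Reck stands high in Pdpn KO replicate 1 alone. The squares of Adamts2, Adamts4 and Adamts9 lie above the circles in both genotypes, as do those of Timp1 and Timp4.

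Start-site regions are shown for 3 TIMP genes with signals at the top of the array and for Reck, the gene with the largest difference, so that their letters can be set beside their values. The sequences are from RefSeq on GRCm38.p6, 5′ to 3′ on the gene's strand, from 250 bases before to 50 after the annotated start, with matches on either strand to GGGCGG (the GC box bound by Sp1), TGANTCA (the AP-1 site), TGAGTAA (an AP-1-like site) and TATAAA (the TATA box) in capitals. The table held such a region for 8 of the 10 genes.
Timp1, chrX:20869916-20870215, + strand: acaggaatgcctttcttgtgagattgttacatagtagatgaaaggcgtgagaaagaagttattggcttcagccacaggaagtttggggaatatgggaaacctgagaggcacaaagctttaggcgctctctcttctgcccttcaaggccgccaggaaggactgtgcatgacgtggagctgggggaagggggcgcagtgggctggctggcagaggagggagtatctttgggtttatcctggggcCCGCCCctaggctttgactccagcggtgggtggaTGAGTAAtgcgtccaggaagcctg
Timp2, chr11:118355362-118355661, - strand: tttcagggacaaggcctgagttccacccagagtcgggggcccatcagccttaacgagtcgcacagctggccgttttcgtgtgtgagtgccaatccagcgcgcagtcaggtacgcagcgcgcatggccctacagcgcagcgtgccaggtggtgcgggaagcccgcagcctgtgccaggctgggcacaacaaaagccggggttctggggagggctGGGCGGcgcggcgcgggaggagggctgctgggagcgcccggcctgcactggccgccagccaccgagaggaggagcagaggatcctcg
Timp3, chr10:86300162-86300461, + strand: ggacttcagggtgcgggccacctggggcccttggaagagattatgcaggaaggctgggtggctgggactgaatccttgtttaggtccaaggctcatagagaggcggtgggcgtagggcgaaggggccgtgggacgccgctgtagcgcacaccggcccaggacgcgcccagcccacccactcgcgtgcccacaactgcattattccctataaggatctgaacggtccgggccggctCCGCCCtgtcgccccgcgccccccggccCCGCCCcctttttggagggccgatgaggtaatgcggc
Reck, chr4:43875280-43875579, + strand: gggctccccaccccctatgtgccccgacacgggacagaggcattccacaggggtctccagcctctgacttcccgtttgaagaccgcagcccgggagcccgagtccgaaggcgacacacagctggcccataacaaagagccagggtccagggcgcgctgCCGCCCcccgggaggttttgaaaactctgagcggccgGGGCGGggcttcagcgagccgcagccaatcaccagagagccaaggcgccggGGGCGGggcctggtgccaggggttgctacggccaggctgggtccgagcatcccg
A GC box was found once in Timp1, once in Timp2, at 2 places in Timp3 and at 3 in Reck. Of 32851 such regions of all genes, 35.7% held it. TGAGTAA stood in Timp1 alone of these, after the annotated start, and was held by 2.68% of all regions. Neither TGANTCA, in 7.81% of all regions, nor TATAAA, in 13.6%, was in any of these 4 windows. Among the regions not shown, the GC box had 3 matches in Adamts1, 5 in Adamts2, 1 in Adamts9 and 0 in Timp4. TATAAA had 1 match in Adamts1. The motifs did not overlap each other, and a match describes the letters only.

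Timp1, Timp2 and Timp3 gave strong signals that were nearly the same in both genotypes. Timp1, the inducible secreted inhibitor encoded on the X chromosome in band A1.3, read 13255 and 13867 in Pdpn KO, against 12077 and 13080 in WT. Both Pdpn KO arrays were higher than both WT arrays, by a margin smaller than the difference between the WT arrays. The log2 means were 13.73 ± 0.05 in Pdpn KO and 13.62 ± 0.08 in WT (SD, n = 2 each), which put Pdpn KO 0.11 ± 0.11 log2 units higher (SE; 95% interval -0.17 to 0.38), or 1.08-fold. Without Pdpn KO replicate 2, the array with the Xist signal, the log2 fold change of Timp1 was 0.08 ± 0.18 (SE).

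Timp2, which besides blocking proteases helps membrane-type metalloproteinases activate the gelatinase Mmp2, is encoded on chromosome 11 in band E2. It read 11205 and 9662 in Pdpn KO, against 10893 and 10286 in WT. The Pdpn KO arrays were the highest and the lowest of the 4, so the WT values lay between them. Pdpn KO minus WT came to -0.02 ± 0.13 log2 units (SE; 95% interval -0.33 to 0.28), and to 0.08 ± 0.18 (SE) without Pdpn KO replicate 2. Its partners Mmp2 and Mmp14 gave differences of a like size, at -0.06 ± 0.13 and 0.04 ± 0.11 (SE), and Mmp14 was chosen after its values were seen.

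Timp3, the matrix-bound inhibitor, encoded on chromosome 10 in bands C1-D1, read 9735 and 8428 in Pdpn KO, against 8583 and 9382 in WT. Here too the WT values lay inside the Pdpn KO range, and the mean difference was 0.01 ± 0.13 log2 units (SE; 95% interval -0.29 to 0.32). It was 0.12 ± 0.18 (SE) without Pdpn KO replicate 2. Of Timp3's targets, the sheddase Adam17, chosen after its values were seen, read 1731 and 1637 in Pdpn KO, against 1661 and 1511 in WT. Its Pdpn KO and WT ranges overlapped.

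Timp4, an inhibitor known mainly from heart and a few other tissues, gave a dim signal. It is encoded on chromosome 6 in band E3 and read 69.7 and 72.1 in Pdpn KO, against 67.7 and 80.1 in WT. Its mean lay at the 14.8 percentile of genes in Pdpn KO and the 15.2 percentile in WT, whereas Timp1, Timp2 and Timp3 lay between the 99.3 and 99.9 percentiles in both. Probe sets differ in how well they bind, so these percentiles place a signal on the array and do not rank transcripts. Timp4 differed by -0.05 ± 0.13 log2 units (SE; 95% interval -0.36 to 0.25), within the spread between replicates, and differences of so dim a signal are compressed by RMA. Without Pdpn KO replicate 2 it differed by -0.08 ± 0.19 (SE).

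Reck had the largest difference of the 9 genes, and it came from a single array. Reck, which restrains metalloproteinases at the cell surface and also serves as a Wnt7 co-receptor, is encoded on chromosome 4 in band B1, the chromosome that carries Pdpn in band E1. It read 1404 and 947 in Pdpn KO, against 906 and 941 in WT. Pdpn KO replicate 1 was high, while Pdpn KO replicate 2 exceeded the higher WT array only slightly. The log2 means were 10.17 ± 0.40 in Pdpn KO and 9.85 ± 0.04 in WT (SD, n = 2 each). Reck was thus 0.32 ± 0.19 log2 units (SE), or 1.25-fold, higher in the mean of Pdpn KO (95% interval -0.14 to 0.79; unadjusted p = 0.144; limma adjusted p = 1.00). This difference was 0.61 ± 0.18 (SE) without Pdpn KO replicate 2 (limma adjusted p = 0.369) and 0.04 without Pdpn KO replicate 1.

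The genes whose profile over the 4 arrays was closest to that of Reck, by the root mean square difference of log2 values centred per gene, were Slc25a35 at 0.02, Bscl2 at 0.03 and Rnf167 at 0.03. Slc25a35, a mitochondrial carrier family member, read 306 and 204 in Pdpn KO, against 197 and 197 in WT. Bscl2, the lipid droplet protein seipin, read 3410 and 2414 in Pdpn KO, against 2292 and 2303 in WT. With 4 arrays, such closeness only describes how these values stood out in Pdpn KO replicate 1.

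**Figure D2:**
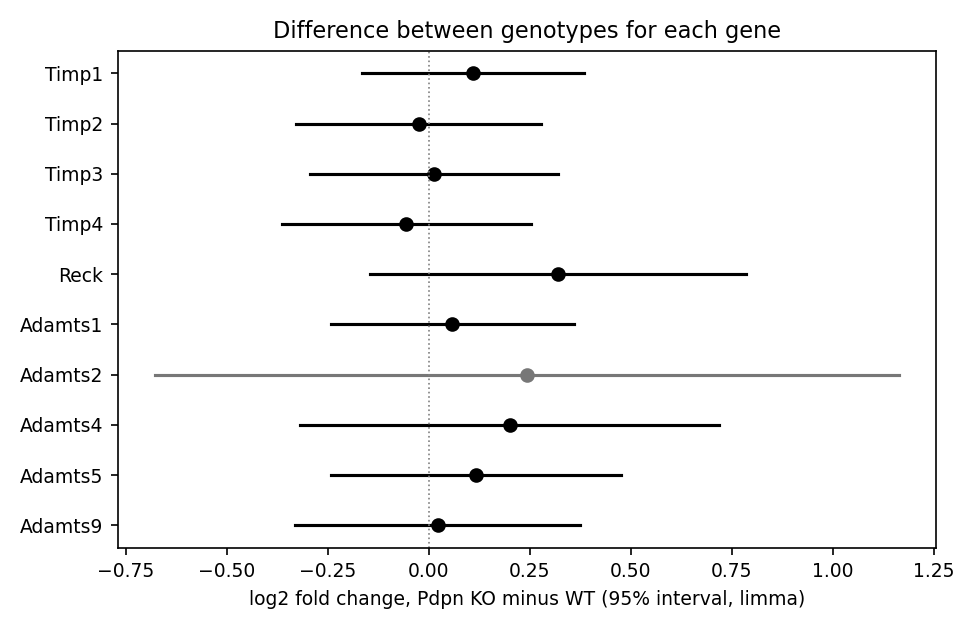
Log2 fold change of each gene, Pdpn KO minus WT (x axis), as points with 95% intervals from limma over all genes, or over all probe sets for Adamts2, in grey. Each interval includes 0, and the widest is that of Adamts2, from -0.68 to 1.16.

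The aggrecan- and versican-cutting ADAMTS proteases likewise gave overlapping values, with a higher mean in Pdpn KO for each of the 4 by the brightest probe set, a direction that turned for Adamts9 under another scaling. Adamts1, encoded on chromosome 16 in bands C3-C5, read 1286 and 1203 in Pdpn KO, against 1279 and 1113 in WT. The arrays numbered 1 of both genotypes were nearly equal. Between genotypes the difference was 0.06 ± 0.12 log2 units (SE; 95% interval -0.24 to 0.36), and 0.11 ± 0.18 (SE) without Pdpn KO replicate 2. Adamts5, the main aggrecanase of mouse cartilage, read 1881 and 1490 in Pdpn KO, against 1621 and 1469 in WT. Pdpn KO replicate 1 was the highest, and Pdpn KO replicate 2 lay between the WT arrays. Adamts5 differed by 0.12 ± 0.15 log2 units (SE; 95% interval -0.24 to 0.48), and by 0.29 ± 0.18 (SE) without Pdpn KO replicate 2. Adamts1 and Adamts5 are neighbours, with 0 protein-coding genes between them in RefSeq. Both were higher in array 1 than in array 2 of each genotype, as were 32.4% of all genes.

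Adamts4, an inducible aggrecanase encoded on chromosome 1 in band H3, read 306 and 404 in Pdpn KO, against 255 and 367 in WT. In both genotypes replicate 2 was the higher array, by 0.40 log2 units in Pdpn KO and 0.53 in WT. Within a replicate number, Pdpn KO exceeded WT by 0.26 for number 1 and 0.14 for number 2. With all arrays, Pdpn KO minus WT was 0.20 ± 0.21 log2 units (SE; 95% interval -0.32 to 0.72). The spread between replicates thus exceeded the difference between genotypes. Leaving out Pdpn KO replicate 2 gave 0.00 ± 0.20 (SE), and leaving out Pdpn KO replicate 1 gave 0.40. The value was 0.47 when WT replicate 2 was dropped and -0.06 when WT replicate 1 was. Each of these fits holds 1 replicate number in a single genotype only, so the difference between numbers enters it and moves the value. With the replicate number as a block, the difference was 0.20 ± 0.08 (SE; limma adjusted p = 0.583).

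Adamts9, a large versican-cutting protease encoded on chromosome 6 in band D1, was read by 6 probe sets. The brightest read 363 and 429 in Pdpn KO, against 355 and 426 in WT, and arrays of the same number were nearly equal. This probe set differed by 0.02 ± 0.15 log2 units (SE; 95% interval -0.33 to 0.38), and by -0.10 ± 0.19 (SE) without Pdpn KO replicate 2. Over the 6 probe sets the log2 fold change ran from 0.02 to 0.14 with a median of 0.06. Replicate 2 was higher than replicate 1 for 6 of 6 probe sets in Pdpn KO and 5 of 6 in WT.

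Adamts2, the procollagen propeptidase, differed more between replicates than between genotypes. The probe set assigned to it by the deposited description, on chromosome 11 in band B1.3, read 467 and 767 in Pdpn KO, against 354 and 722 in WT. Replicate 2 was high and replicate 1 low in each genotype. The difference between replicates was 0.72 log2 units in Pdpn KO and 1.03 in WT. Between genotypes it was 0.24 ± 0.38 log2 units (SE; 95% interval -0.68 to 1.16) in a limma fit over all 24679 probe sets (adjusted p = 1.00).

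**Figure D3:**
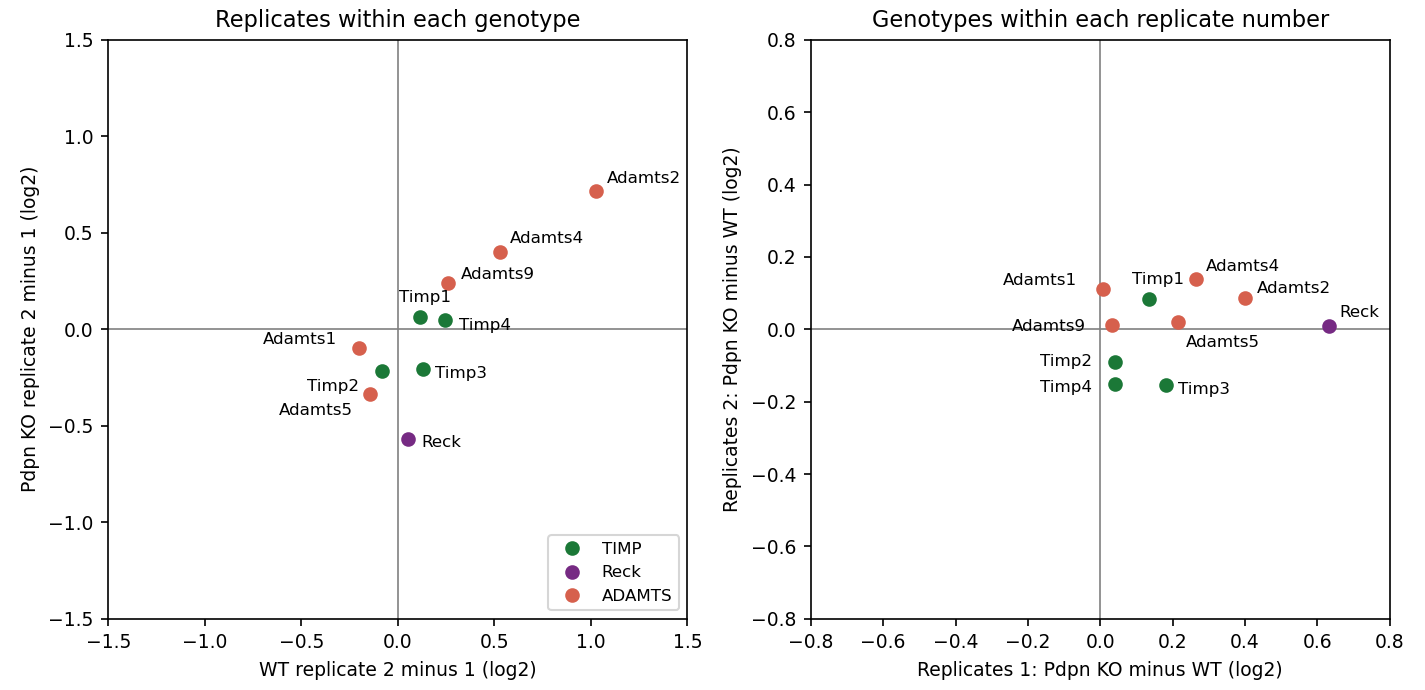
Left, the log2 difference between replicates 2 and 1 in WT (x axis) and in Pdpn KO (y axis); right, the log2 difference Pdpn KO minus WT among replicates 1 (x axis) and among replicates 2 (y axis), with TIMPs in green, Reck in purple and ADAMTS proteases in orange. Adamts2, Adamts4 and Adamts9 lie in the upper right of the left panel, and Reck lies at 0.63 on x and 0.01 on y in the right panel.

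The order of the replicates was shared by both genotypes about as often as over all genes. Replicate 2 was above replicate 1 in both genotypes for 4 of the 9 genes, Timp1, Timp4, Adamts4 and Adamts9, where 41.3% of all genes did so. It was below in both for 3 of 9, Timp2, Adamts1 and Adamts5, where 32.4% of all genes did so. In Timp3 and Reck the genotypes ran opposite ways. Each genotype held 1 array of each number.

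Among 14 other ADAMTS proteases, 0 passed in limma and 2 had an unadjusted p under 0.05, both lower, as did 0.511% of all genes. Their median log2 fold change was 0.01, beside 0.00 over all genes. Adamts10, which acts on fibrillin microfibrils, read 1266 and 924 in Pdpn KO, against 1804 and 1573 in WT, with a log2 fold change of -0.64 ± 0.18 (SE; limma adjusted p = 1.00). Adamts6, its close relative, read 535 and 474 in Pdpn KO, against 718 and 588 in WT (-0.37 ± 0.14). Adamts14, another procollagen propeptidase beside Adamts2, read 371 and 359 in Pdpn KO, against 408 and 457 in WT (-0.24 ± 0.12). In these 3 genes both Pdpn KO arrays lay below both WT arrays, as for 4 of 14 in all, where 9.74% of all genes did so. Adamts12, the next brightest after Adamts10, had -0.30 ± 0.24 (SE), and its values overlapped.

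The ADAMTS-like proteins, which share the thrombospondin repeats but lack the protease domain, had 0 of 7 past the threshold and 0 of 7 at an unadjusted p under 0.05 in limma, against 0.0101% and 2.01% of all genes, with a median of 0.09. Adamtsl4, a microfibril-associated protein, read 1007 and 733 in Pdpn KO, against 637 and 704 in WT (0.36 ± 0.17). Adamtsl3 read 251 and 277 in Pdpn KO, against 172 and 246 in WT (0.36 ± 0.19). Papln had 0.09 ± 0.15 and Adamtsl5 0.01 ± 0.26 (SE).

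Among 27 measured matrix metalloproteinases and ADAM enzymes, 0 passed in limma. Of these 27, 2 had an unadjusted p under 0.05, both higher, as were 1.5% of all genes. The median over the 27 was -0.01. Mmp3, the stromelysin that degrades matrix and activates other metalloproteinases, read 492 and 347 in Pdpn KO, against 242 and 192 in WT (0.94 ± 0.20; limma adjusted p = 1.00). Adam8, a membrane sheddase, read 523 and 742 in Pdpn KO, against 378 and 493 in WT (0.53 ± 0.21). Adam19 read 3395 and 3192 in Pdpn KO, against 3794 and 3732 in WT (-0.19 ± 0.11), and the bright sheddase Adam9 had -0.10 ± 0.13 (SE). Both Pdpn KO arrays lay above both WT arrays for 2 of the 27 enzymes, Mmp3 and Adam8, against 14.6% of all genes, and below for 3 of 27, Adam19, Mmp24 and Adam33, against 9.74% of all genes. Mmp24 and Adam33 were chosen after their values were seen.

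**Figure D4:**
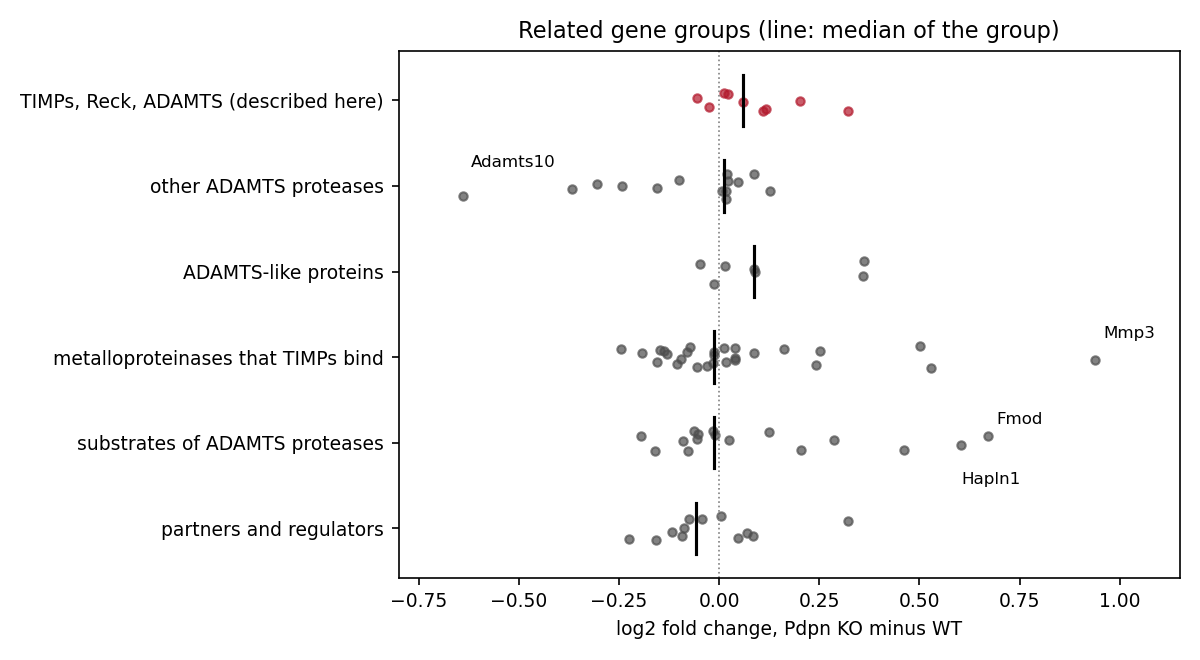
Log2 fold change, Pdpn KO minus WT (x axis), of each measured gene in the TIMP, Reck and ADAMTS group (red, 9 genes) and in 5 related groups (grey), with a line at each group's median. The medians lie between -0.06 and 0.09, and Mmp3 at 0.94 and Adamts10 at -0.64 are the outermost points. The group labelled as metalloproteinases that TIMPs bind holds matrix metalloproteinases and ADAM enzymes, and TIMP binding was not tested for each.

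Substrates of ADAMTS proteases had 0 of 16 past the threshold in limma and 1 at an unadjusted p under 0.05, higher, as were 1.5% of all genes, with a median of -0.01. Hapln1, the link protein that ties aggrecan and versican to hyaluronan, read 128 and 217 in Pdpn KO, against 104 and 116 in WT (0.60 ± 0.24). Its signal was dim, with the mean at the 35.1 percentile of genes in Pdpn KO and the 23.4 percentile in WT. Within a replicate number, Pdpn KO exceeded WT by 0.31 log2 units for number 1 and 0.90 for number 2. Acan, aggrecan itself, read 162 and 337 in Pdpn KO, against 135 and 213 in WT (0.46 ± 0.37), and Comp had 0.29 ± 0.18 (SE). Thbs1 and Bgn, the brightest of the list, had -0.05 ± 0.11 and -0.09 ± 0.11 (SE). Replicate 2 was above replicate 1 in both genotypes for 12 of the 16 substrates, where 41.3% of all genes did so. The 10 cartilage markers, of which Acan, Col2a1, Comp and Hapln1 are also in the substrate list, summed to 5147 and 5380 in Pdpn KO, against 4775 and 5611 in WT, and their part in these values was not tested.

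Partners and regulators had 0 of 12 past the threshold in limma and 0 at an unadjusted p under 0.05, against 0.0101% and 2.01% of all genes, with a median of -0.06. Sdc4, a heparan sulfate proteoglycan that binds ADAMTS enzymes at the cell surface, read 3870 and 4466 in Pdpn KO, against 2717 and 4067 in WT (0.32 ± 0.20). Furin, the convertase that removes the propeptide of ADAMTS enzymes, read 2833 and 3042 in Pdpn KO, against 3433 and 3127 in WT (-0.16 ± 0.12). Wnt7b, a ligand received through Reck, gave a dim signal (-0.12 ± 0.11), and Fn1 and Itgb1 had -0.08 ± 0.12 and -0.09 ± 0.11 (SE).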

How the data were processed

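RNA of 4 cultures, 2 Pdpn KO and 2 WT, was copied to biotin-labelled cDNA and read on 1-colour Affymetrix gene arrays. The authors deposited RMA values, 1 linear intensity for each probe set (background correction, quantile normalisation and probe summary), per the submitters' processing notes. No version or genome build was given in the sources used here. RMA levels the arrays, so a shift shared by most genes cannot be seen, and the number of arrays limits the precision. The 2 deposited tables, of 24679 probe sets each, agreed to within 0.005; values come from the series matrix.

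Log2 was taken with no pseudocount or filter. The platform table gave 1 symbol for 21354 probe sets, several for 1275 and none for 2050; the probe set with the highest mean was kept per symbol, which left 19751 genes. All 9 matched genes had the same symbol in RefSeq (GRCm38.p6) by Entrez identifier. The deposited description gave each chromosome and band. Pdpn KO was compared with WT in limma 3.58.1 on R 4.3.3 (lmFit and eBayes, two-sided, p-values adjusted by Benjamini-Hochberg over the whole table, threshold 0.05). The fit was tested on simulated data in which arrays varied independently, and it called few of the genes set to differ 1.5-fold. A gene not called may therefore still differ by that much. The labels call the arrays biological replicates without saying which embryos or litters they came from, and the 2 Pdpn KO arrays differed in sex-linked transcripts, so p-values reflect how far these arrays vary, part of which may be technical. The genes and lists were chosen with earlier results of these data known. The genes named were all members, Pdpn, sex-linked genes, and from each related list those past the threshold, or else the 3 with the smallest p, with the 2 brightest; from cell type lists the 2 brightest, of which those of fibroblasts and the brightest epithelial one are given. Exceptions are marked as chosen after their values were seen. Figures were drawn with matplotlib 3.10.9.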

Additional observations from a re-analysis of the deposited data

How the results depend on the processing

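In each of 12 alternatives 0 of the TIMP, Reck and ADAMTS genes were called, and their median log2 fold change ran from 0.011 to 0.084. The count over all genes was 2, but 9 with limma's robust, intensity-dependent prior, 34 with the replicate number as a block, 1 with all probe sets tested (added after seeing the data) and from 5 to 100 with 1 array left out; the cause was not tested. Deviations of same-numbered arrays from their genotype means correlated with r = 0.58 across genes, which are not independent replicates. The labels give the arrays only a shared number, and with the block the smallest limma adjusted p among the 9 genes was 0.583, for Adamts4, which had an unadjusted p under 0.05, as 8.49% of all genes did. The sign turned for Timp3, to -0.017 with centring on array medians and -0.010 with quantile normalisation, and for Adamts9, to -0.0074 and -0.027. With 1 array left out, a sign turned in at least 1 fit for Timp2 (-0.13 to 0.082), Timp3 (-0.091 to 0.12), Timp4 (-0.18 to 0.067), Adamts1 (-0.041 to 0.16), Adamts4 (-0.062 to 0.47), Adamts5 (-0.051 to 0.29) and Adamts9 (-0.11 to 0.15). Timp1 (0.052 to 0.17) and Reck (0.037 to 0.61) kept theirs. Timp4 fell among the dimmest 25% of genes and so was not tested without them. The lone array of a genotype in such fits is assumed to vary like the others. Differences between replicate numbers also enter these fits, so a turned sign need not come from the genotype.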

Other observations

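By RefSeq intervals on GRCm38.p6, 3 TIMP genes lie within synapsin genes, which encode proteins of synaptic vesicles: Timp1 within Syn1, Timp3 within Syn3 and Timp4 within Syn2. Syn1 read 424 and 359 in Pdpn KO, against 403 and 398 in WT, with a log2 fold change of -0.04 ± 0.13 (SE). Syn3 had 0.05 ± 0.11 and Syn2 -0.02 ± 0.16 (SE), each with a limma adjusted p of 1.00. Cep295nl, which lies within Timp2, read 557 and 378 in Pdpn KO, against 657 and 485 in WT (-0.30 ± 0.23; limma adjusted p = 1.00).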
